A study of Homo sapiens with 8 samples.

Results

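The 4 wild-type libraries described here, of 8 in the series, follow H1 cells over the first days, from day 0 to day 2, of hematopoietic differentiation. H1 is an established human embryonic stem cell line. The members were chosen by genotype: all 4 libraries labelled wild type were taken, 1 from day 0 and 3 from day 2. The other 4 libraries carry a knockout of SETD7, a lysine methyltransferase, and are used below only as a second pair of days. Wild-type cells of both days carry no labelled edit, and both were labelled with the same hematopoietic differentiation treatment, whose factors are not named. The labels do not say whether the 3 day 2 libraries came from separate cultures. The day 0 value is therefore 1 measurement without an error, and every ± below is an SD over the 3 day 2 libraries, which may be technical.

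Pluripotent stem cells of the human embryonic kind depend on the transcription factors POU5F1, SOX2 and NANOG and grow as an epithelium held together by E-cadherin. On the way to blood they pass through a primitive streak stage, in which Nodal, Wnt and BMP signals act on the T-box factors EOMES and T. Cells then leave the epithelium and become mesoderm, part of which later forms endothelium and blood, while a neighbouring fate is endoderm.

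Day 0 was deposited as FPKM, which is scaled for transcript length and sequencing depth, and day 2 as counts per gene. The wild-type day 2 totals were 27880068, 32230627 and 30311918 counts, and the day 0 depth is unknown. Because the 2 tables were normalized separately, no test across days was possible, and each gene was described by its percentile rank within each day. Of 11435 gene symbols that occur once in both tables, 11431 had an exonic length and were ranked, by FPKM on day 0 and by CPM (counts divided by the library total and scaled to a common total) per kb of exon on day 2. The shift is the day 2 rank minus the day 0 rank, in percentile points. A gene is said to have moved up or down when its shift was at least 20 points in the same direction in each of the 3 day 2 libraries. The rank by CPM alone, without length, stands beside it as the second scale.

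On this measure 1714 genes (15%) moved up and 1834 (16%) moved down. The counts of each group of genes below are to be read against these shares. On the scale without length 1952 (17.1%) moved up and 1974 (17.3%) moved down, and 1248 (10.9%) and 1374 (12%) did so on both. With ranks over each whole table instead of the shared symbols, 1070 moved up and 2529 moved down, so that the split of the directions depends on which genes are ranked. Between the libraries of one day such moves were rare. Replicates 1 and 2 of day 2 differed by 20 points in 1 gene, and the other pairs of day 2 replicates in 0 genes. The wild-type and knockout libraries of day 0 differed by 20 points in 310 genes (2.71%), which is a difference of genotype as well as of library. Spearman's rho across the 11431 genes, which are not independent replicates, was 0.998, 0.997 and 0.998 between day 2 replicates and 0.650, 0.649 and 0.650 between day 0 and each day 2 library. The change of unit between the days lies in these last values too, and its share was not tested. In bulk RNA, fewer cells of a type and less RNA per cell cannot be told apart.

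**Figure D1:**
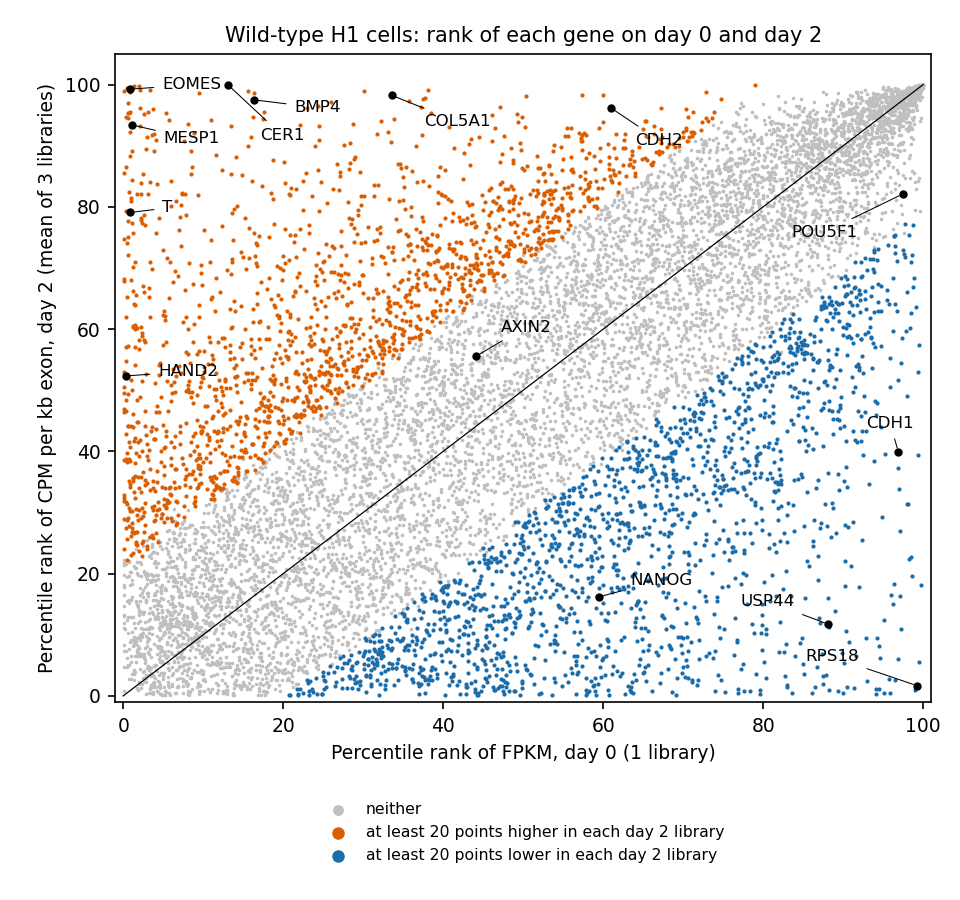
Percentile rank of each of 11431 genes on day 0 (x axis, FPKM, 1 library) and on day 2 (y axis, CPM per kb of exon, mean of 3 libraries) in wild-type H1 cells. Orange genes moved up and blue genes moved down by at least 20 points in each day 2 library; EOMES, MESP1 and CER1 sit at the upper left and USP44, CDH1 and RPS18 at the right.

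Genes of the primitive streak and nascent mesoderm moved up almost as a whole. Of 21 ranked members 19 moved up and 0 moved down, with a median shift of 76.1 points against 0.72 for all ranked genes. On day 0, 17 of the 21 lay under 1 FPKM, and on day 2 only WNT3 and WNT8A lay under 5 CPM. EOMES (ENSG00000163508, chromosome 3, 27715949 to 27722711, minus strand, GRCh38), a T-box factor that directs mesendoderm formation, had 0.142 FPKM on day 0 and 1100.4, 1083 and 1093 CPM in the 3 day 2 libraries. Its rank went from 0.857 to 99.2, a shift of 98.4 ± 0.00505 points. MIXL1 (ENSG00000185155, chromosome 1, 226223618 to 226227054, plus strand), a homeobox factor of the streak, had 0.598 FPKM and then 1453, 1443 and 1479 CPM, a shift of 97.8 points. All 3 day 2 libraries placed both genes within the top percentile of the ranked genes.

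The other streak factors reached lower day 2 levels. T (ENSG00000164458, chromosome 6, 166157656 to 166168700, minus strand), also known as brachyury, had 0.147 FPKM on day 0 and 46.8, 51.4 and 49.3 CPM on day 2, a shift of 78.2 ± 0.893 points. MESP1 (chromosome 15, 89748661 to 89751310, minus strand), a bHLH factor of the earliest cardiovascular mesoderm, had 0.192 FPKM and then 122, 125 and 128 CPM, a shift of 92.4 points. Its neighbour in the family, MESP2, shifted by 81.8 points and TBX6, a T-box factor of the presomitic mesoderm, by 44.6. GSC, the homeobox gene of the organizer, went from 0.0799 FPKM to 90.6, 91.00 and 92.97 CPM. FGF8 and FGF17, both fibroblast growth factors made in the streak, shifted by 76.1 and 77.1 points. The 2 members that did not move were the ligand genes WNT3 (shift 1.78, 0.574, 1.15 and 1.35 CPM) and WNT8A (16.3, 3.05, 3.07 and 2.87 CPM), both low on both days.

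Promoters are shown for 3 genes that moved up to the highest ranks and for NANOG, which moved down. Each is the 250 bases before the RefSeq start of the gene (GRCh38.p14), 5′ to 3′ on the gene's own strand, and capitals mark the letters that match a searched motif. The motifs were a TCF/LEF site (CTTTGAT), a FOXH1 site of the Nodal pathway (TGTNNATT), a TATA box (TATAAA) and a composite SOX2-POU5F1 site, on both strands, with N for any base. The composite site is CATTGT, then 1 base of any kind, then ATGCAAA.
MIXL1: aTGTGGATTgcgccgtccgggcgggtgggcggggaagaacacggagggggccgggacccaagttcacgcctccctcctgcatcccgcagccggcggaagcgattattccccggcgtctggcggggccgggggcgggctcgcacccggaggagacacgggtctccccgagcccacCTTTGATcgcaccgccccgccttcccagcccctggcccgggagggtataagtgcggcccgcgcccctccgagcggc
EOMES: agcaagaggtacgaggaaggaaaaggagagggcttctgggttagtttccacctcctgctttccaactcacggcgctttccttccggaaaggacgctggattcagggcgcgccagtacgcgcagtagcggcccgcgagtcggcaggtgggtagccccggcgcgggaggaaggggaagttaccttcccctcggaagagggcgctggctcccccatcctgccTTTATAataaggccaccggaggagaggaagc
CER1: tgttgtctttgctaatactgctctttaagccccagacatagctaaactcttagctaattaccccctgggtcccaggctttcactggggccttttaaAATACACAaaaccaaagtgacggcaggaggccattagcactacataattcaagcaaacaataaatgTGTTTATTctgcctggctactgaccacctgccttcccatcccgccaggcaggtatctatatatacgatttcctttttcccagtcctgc
NANOG: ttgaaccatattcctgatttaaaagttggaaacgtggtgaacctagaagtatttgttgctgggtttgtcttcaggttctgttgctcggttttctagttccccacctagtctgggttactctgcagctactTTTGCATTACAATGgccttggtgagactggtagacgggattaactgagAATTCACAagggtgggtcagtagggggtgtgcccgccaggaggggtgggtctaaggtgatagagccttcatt
The MIXL1 window (chr1:226223414-226223663, plus strand) held a TCF/LEF match 76 to 70 bases before the start and a FOXH1 match 249 to 242 bases before it. The EOMES window (chr3:27722324-27722573, minus strand) held a TATA match on the reverse strand, 31 to 26 bases before the start. The CER1 window (chr9:14722734-14722983, minus strand) held 2 FOXH1 matches, at 154 to 147 and 88 to 81 bases. The NANOG window (chr12:7789152-7789401, plus strand) held the composite site on the reverse strand, 120 to 107 bases before the start, and a FOXH1 match at 72 to 65 bases.

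These letters were set against all promoters of the RefSeq table, in windows of 250 bases before to 50 after the start. The composite site occurred in 3 of 27305 promoters. Of the 9045 ranked genes with a window, 2 held it, NANOG and NRARP, an antagonist of Notch signalling, and both moved down. NRARP had 13.3 FPKM on day 0 and 3.77, 4.002 and 3.27 CPM on day 2, a shift of −35.5 points. A TCF/LEF match lay in 2.64% of all windows and in 1.32% of those of ranked genes, in 1.66% of those that moved up and in 0.833% of those that moved down. For FOXH1 the 4 shares were 11.1%, 4.98%, 5.36% and 5.63%, and for the TATA box 11.95%, 4.96%, 6.72% and 4.51%. All windows in the table include many genes of low CG content, and the median window held 14 CG pairs against 27 among the ranked genes. A match is a description of the letters and not a site of binding.

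**Figure D2:**
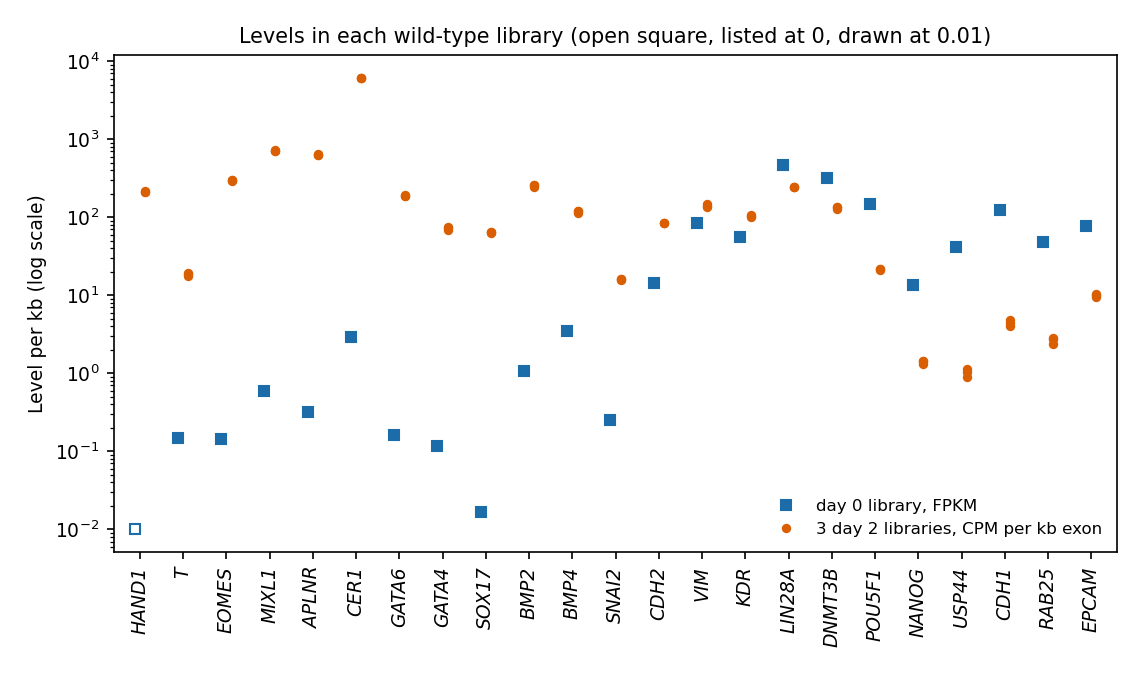
Level per kb on a log axis for 23 genes in each wild-type library: blue squares, day 0 (FPKM, 1 library); orange dots, the 3 day 2 libraries (CPM per kb of exon). The units differ between the days, HAND1 is listed at 0 on day 0 and drawn at 0.01, and the 3 day 2 dots lie almost on top of each other for every gene.

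Lateral plate and cardiac mesoderm genes were the list with the highest median shift, 80.04 points. Of 15 ranked members 13 moved up and 0 moved down, and 12 moved on both scales. HAND1 (ENSG00000113196, chromosome 5, 154474972 to 154478264, minus strand), a bHLH factor of the heart and extraembryonic mesoderm, was listed at 0 on day 0 and had 367, 371 and 375 CPM on day 2. GATA4 (chromosome 8, 11676959 to 11760002, plus strand) and GATA6 (chromosome 18, 22169443 to 22202528, plus strand), zinc finger factors of cardiac mesoderm and endoderm, went from 0.117 and 0.161 FPKM to means of 319 ± 14.6 and 755 ± 9.52 CPM. APLNR, the apelin receptor, was the second of the list with 0.316 FPKM and then 2366, 2402 and 2361 CPM. Each of these stood near the bottom of the ranking on day 0 and near the top in all 3 day 2 libraries.

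Later cardiac regulators were also present at day 2. NKX2-5, a homeobox factor of heart progenitors, went from 0.0325 FPKM to 39.2, 41.3 and 38.4 CPM, and TBX20 from 0.108 FPKM to 8.14, 7.69 and 8.08 CPM. FOXF1 (chromosome 16, 86510527 to 86515418, plus strand), a forkhead factor of splanchnic mesoderm, shifted by 73.6 points and HAND2 by 51.96. MYL7, the atrial myosin light chain, had 0.965 FPKM and then 61.3, 59.6 and 60.2 CPM. ISL1 (5.02, 4.59 and 5.15 CPM) and BVES (8.57, 8.19 and 8.25 CPM) did not move by the rule.

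The hemato-endothelial list was divided. Of 14 ranked members 7 moved up and 0 moved down, the median shift was 20.8 points, and only 4 members moved up on both scales. SOX17, an SRY-box factor of endoderm and of hemogenic endothelium, made the largest move, from 0.0165 FPKM to 152, 152 and 146 CPM, a shift of 94.4 points. ETS1 and GATA2, factors of endothelial and blood progenitors, shifted by 46.96 and 43.5 points, with 23.6, 23.2 and 23.6 CPM for GATA2. KDR (chromosome 4, 55078259 to 55125595, minus strand), the VEGF receptor that marks early hemangioblasts, was already at rank 91.7 on day 0 with 55.8 FPKM. It had 669.5, 704 and 693 CPM on day 2 and shifted by 5.34 points, in a range where ranks saturate, and its log2 ratio of levels was 1.47. That ratio is log2 of CPM per kb plus 1 over FPKM plus 1, less the median of all genes, which was −0.58 before centring.

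Regulators that act later in blood formation had low to moderate levels on day 2. ETV2, the factor that specifies endothelium, had 0.469 FPKM and then 1.76, 1.77 and 1.98 CPM, at rank 9.44 on day 2. RUNX1, needed for the emergence of blood stem cells, had 0.138 FPKM and then 25.4, 28.1 and 29.99 CPM, and its shift was 19.4 points per length and 43.3 by CPM. LYL1 and SOX18 moved up by 23.3 and 25.6 points to means of 7.13 and 4.70 CPM, and neither moved by the rule on the second scale. TAL1, LMO2, CD34, CDH5, PECAM1 and 6 others of the list had a value on day 0 only and were not analysed here on day 2. On day 0, TAL1 was at 0.0303 FPKM and CD34 at 0.127.

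The ranked HOX genes were 7, all of the HOXB cluster, and 6 of them were listed at 0 on day 0. On day 2 the highest was HOXB6 at 23.6, 25.5 and 27.6 CPM, from 0.0258 FPKM, followed by HOXB2 at 12.8, 13.3 and 14.8 CPM and HOXB3 at 13.1, 12.8 and 12.8. HOXB6, HOXB2 and HOXB9 moved up, by 61.6, 46.8 and 32.8 points. The other 4 shifted by 19.6 to 22.1 points and missed the rule in at least 1 library. HOX genes encode the factors that pattern the trunk along its axis.

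Most endoderm and paraxial mesoderm genes also moved up. Of 12 ranked endoderm genes 9 moved up and 1, the receptor KIT (9.16 FPKM, then 12.02, 10.4 and 11.2 CPM), moved down. By CPM alone KIT shifted by −20.9 points on average and did not meet the rule. Most of the 9 stand on other lists here as well. EOMES and GSC are also streak genes, GATA6 is a lateral plate gene, and SOX17 and HHEX are hemato-endothelial genes. LGR5 is also a listed Wnt target and CER1 a listed Nodal target. CER1 (chromosome 9, 14719724 to 14722717, minus strand), a secreted inhibitor of Nodal, BMP and Wnt ligands, had 2.95 FPKM on day 0 and 7369, 7484 and 7455 CPM on day 2. Per kb, only the mitochondrial gene MT-CO2 ranked above it in every day 2 library, and its centred log2 ratio of 11.17 was the largest of those named. LGR5, a receptor of R-spondins, went from 0.0762 FPKM to 321, 325 and 323 CPM. CXCR4, a chemokine receptor used to sort definitive endoderm, stood at 6.71, 6.11 and 7.29 CPM. FOXA2, the defining forkhead factor of endoderm, was listed at 0 on day 0 and was not analysed here on day 2.

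Of 7 paraxial and presomitic genes 5 moved up and 1 moved down. CYP26A1, the enzyme that clears retinoic acid, shifted by 68.9 points to 710.4, 713 and 706 CPM. FOXC1 and RSPO3 shifted by 74.5 and 56.6 points, and DLL3, a Notch ligand of the presomitic mesoderm, by 49.3. LFNG, a glycosyltransferase that modifies Notch, moved down, with a shift of −47.7 points, from 14.5 FPKM to 4.52, 4.28 and 3.53 CPM.

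By the rank rule pluripotency genes did not move as a group. Of 30 ranked members 5 (16.7%) moved up, 7 (23.3%) moved down and 18 did neither, with a median shift of −1.57 points. Among all ranked genes 15% moved up and 16% moved down. The median rank of the list was 92.7 on day 0, in a range where ranks saturate, and 79.6 on day 2. Its summed level was 4032 FPKM on day 0 and 1562 to 1583 CPM per kb on day 2, in different units. The median centred log2 ratio of the list was −0.277. The core factors ranked on both days, NANOG and POU5F1, both shifted down, and only NANOG met the rule per length. NANOG (ENSG00000111704, chromosome 12, 7787794 to 7799141, plus strand) had 13.7 FPKM on day 0 and 7.21, 7.73 and 7.82 CPM on day 2, a shift of −43.3 ± 0.899 points. POU5F1 (chromosome 6, 31164337 to 31180731, minus strand) had 149 FPKM and then 63.6, 61.4 and 62.5 CPM, a shift of −15.4 points per length and −30.2 by CPM, so that it met the rule only on the second scale. POU5F1 has several processed copies in the genome, and how the authors treated reads shared with them is not given in the sources used here. SOX2 had 157 FPKM on day 0 and was not analysed here on day 2.

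The genes of the list that moved down furthest were USP44 and LCK. USP44, a deubiquitinase of histone H2B, went from 42.1 FPKM to 4.91, 6.08 and 5.67 CPM and shifted by −76.4 points. LCK, a Src family kinase, shifted by −67.1 points, PRDM14, a repressor that supports pluripotency, by −33.95, and FGF2, the growth factor of stem cell medium, by −40.03. LIN28A, which binds let-7 precursors, had 473 FPKM and then 983, 982 and 995 CPM, with ranks of 99.1 and 99.03. DNMT3B, a de novo DNA methyltransferase, had 318 FPKM and then 599, 632 and 620.2 CPM, with ranks of 98.9 on day 0 and 97.9 on day 2. Ranks this near to the top resolve little, and its centred log2 ratio was −0.67.

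The 5 pluripotency members that moved up were KLF4 and 4 genes of the Nodal pathway, NODAL, GDF3, LEFTY1 and LEFTY2. By CPM only LEFTY1 (24.4 points) and LEFTY2 (29.2) met the rule, while KLF4 (18.2), NODAL (16.5) and GDF3 (13.99) did not, and 9 members moved down. NODAL, the ligand, went from 1.13 FPKM to 8.14, 9.12 and 9.50 CPM, and LEFTY2, a feedback inhibitor of it, from 1.41 FPKM to 16.1, 18.5 and 20.3 CPM. LEFTY1 had 0.0311 FPKM in the wild-type day 0 library and 11.1, 11.9 and 11.8 CPM on day 2, a shift of 48.03 points. The day 0 knockout library had 11.8 FPKM, so the wild-type shift rests on 1 low library. Part of the exon of LEFTY1 (46.6%) and of NODAL (41.2%) is shared with another gene.

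Nodal and activin target genes moved up in 13 of 17 cases and down in 0, with a median of 49.9 points. FST, an antagonist of activin, shifted by 61.6 points and PMEPA1, an inhibitor of SMAD signalling, by 60.2. The coreceptor TDGF1 (shift 0.365) and the SMAD partner FOXH1 (2.79) were high on both days, with 249 and 26.7 FPKM on day 0 and means of 668 and 54.4 CPM on day 2.

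Of 18 BMP and SMAD1/5 target genes 16 moved up and 0 moved down, with a median of 68.8 points. The ligand gene BMP4 was among them, and BMP2, a ligand gene outside the list, also moved up. BMP4 (chromosome 14, 53949736 to 53958761, minus strand) had 3.51 FPKM and then 352, 368 and 374 CPM, a shift of 81.1 points, and BMP2 (chromosome 20, 6767664 to 6780280, plus strand) had 1.08 FPKM and then 895, 936 and 923 CPM, a shift of 95.7. The feedback inhibitors SMAD6 and SMAD7 shifted by 86.8 and 72.7 points, the secreted antagonist NOG by 81.7 and the pseudoreceptor BAMBI by 60.2. The homeobox targets MSX1 and MSX2 went from 0.221 and 0.135 FPKM to 71.4, 73.1 and 71.7 and to 72.1, 72.7 and 70.8 CPM. ID1, a direct SMAD1/5 target, was high on both days (47.3 FPKM, then 113, 109 and 121 CPM). Its shift was 6.57 points per length and −7.50 by CPM, a change of sign between the scales, and neither met the rule.

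Of 21 Wnt/beta-catenin target genes 17 moved up and 1 moved down, with a median of 57.9 points. SP5, a zinc finger target of beta-catenin, went from 0.124 FPKM to 154, 151 and 157 CPM. The inhibitors DKK1 (96.4 points), NKD1 (74.2), DKK4 (67.8) and APCDD1 (66.2) moved up together, and DKK1 reached 231, 237 and 225 CPM. The nuclear partners of beta-catenin were mixed: LEF1 and TCF7 moved up by 36.6 and 37.6 points and TCF7L2 moved down, with a shift of −31.4. AXIN2 (chromosome 17, 65528563 to 65561647, minus strand), the most widely used Wnt reporter gene, had 8.92 FPKM and then 44.3, 40.6 and 39.03 CPM. Its shift of 11.5 ± 1.90 points did not meet the rule. MYC shifted by 26.99 points in wild type, where the day 0 library had 14.99 FPKM, against 2.45 in the knockout.

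Of 19 FGF/ERK target genes 7 (36.8%) moved up and 2 (10.5%) moved down, with a median of 19.7 points. Among all ranked genes the shares were 15% and 16%. The phosphatase gene DUSP5 went from 4.67 FPKM to 221, 229 and 226 CPM. IL17RD, an inhibitor of FGF signalling, shifted by 57.02 points and the Sprouty genes SPRY1, SPRY2 and SPRY4 by 41.2, 34.7 and 22.5. The ETS factors ETV4 (1.24 points) and ETV5 (−8.29) and the phosphatase DUSP6 (7.24) stayed within 10 points. EGR1, an immediate early gene, moved down in wild type, with a shift of −29.1 points against 7.23 in the knockout. DUSP14, the other gene that moved down, had a shift of −20.5 points and was listed at 0 on day 2.

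Adhesion genes showed the epithelial side going down. Of 18 ranked epithelial genes 0 moved up and 9 moved down, all 9 on both scales, with a median of −18.7 points. CDH1 (ENSG00000039068, chromosome 16, 68737225 to 68835548, plus strand), which encodes E-cadherin, had 126 FPKM on day 0 and 25.2, 30.03 and 27.5 CPM on day 2. Its rank went from 96.9 to 39.9, a shift of −57.01 ± 2.17 points. RAB25, a GTPase of epithelial recycling, shifted by −62.3 points, the claudin gene CLDN7 by −51.03, the adhesion molecule gene EPCAM by −31.4, and the splicing factor gene ESRP1 by −37.3. The simple keratins did not follow. KRT8 and KRT18 had 135 and 68.01 FPKM and then means of 748 ± 17.5 and 208 ± 1.04 CPM, with shifts of −0.00292 and 1.36 points.

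On the mesenchymal side 7 of 19 genes moved up and 0 moved down, with a median of 16.3 points. CDH2 (chromosome 18, 27950966 to 28177446, minus strand), which encodes N-cadherin, had 14.3 FPKM and then 419, 423 and 423 CPM, a shift of 35.2 points. SNAI1 and SNAI2, repressors of E-cadherin, shifted by 68.7 and 74.5 points, to 87.4, 82.1 and 87.9 and to 55.1, 53.9 and 54.7 CPM. ZEB2 and TWIST1 moved up by 29.1 and 26.3 points. ZEB1 shifted by 21.1 points on average and missed the rule in at least 1 library. VIM (chromosome 10, 17228259 to 17237593, plus strand), which encodes the intermediate filament vimentin, was already at rank 94.9 on day 0 and shifted by 3.23 points, and FN1, fibronectin, by 5.50.

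**Figure D3:**
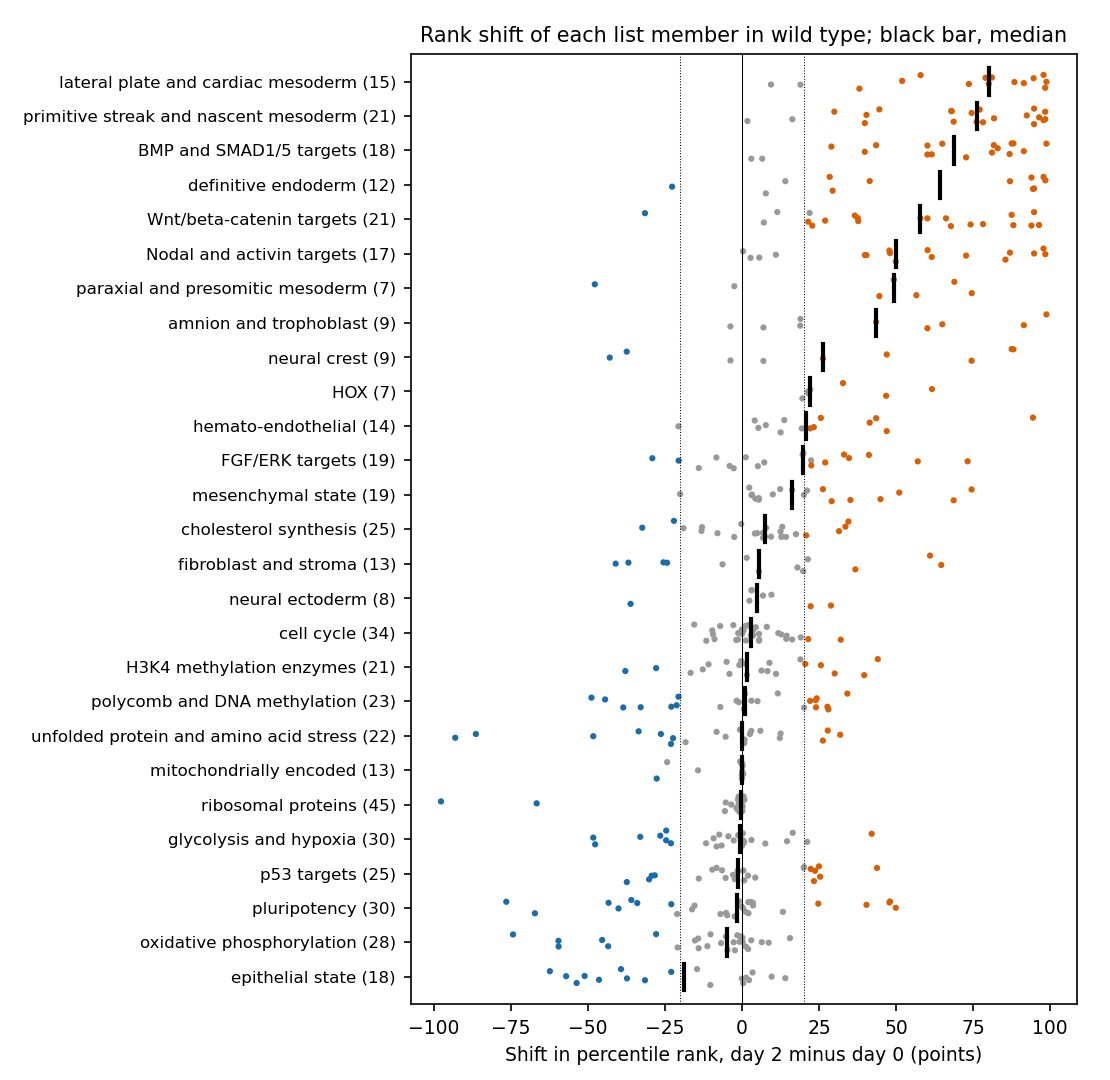
Rank shift in wild type (x axis, percentile points, mean of 3 day 2 libraries) of every ranked member of 27 gene lists, ordered by list median (black bar), with the number of members in brackets. Orange members moved up and blue members moved down by at least 20 points in each library (dotted lines); lateral plate, primitive streak and BMP lists lie furthest to the right and the epithelial list furthest to the left.

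Markers of other cell types moved too, and their part in the results above was not tested. Of 9 amnion and trophoblast genes 5 moved up and 0 moved down, and their summed level went from 15.7 FPKM to between 404 and 413 CPM per kb. Sums on the 2 days, here and below, are in different units. Of the 5, HAND1, TBX3, GATA2, GATA3 and BAMBI, most are mesoderm or BMP genes as well. The 4 that did not move by the rule were ISL1, PGF, TFAP2A (5.27, 5.62 and 5.61 CPM) and TFAP2C (6.38, 6.61 and 5.08 CPM). By CPM alone 6 of the 9 moved up. Another 6 genes of this list, KRT7 and GABRP among them, had a value on day 0 only and were not analysed here on day 2. Whether amnion or trophoblast cells were present was not tested. Of 9 neural crest genes 5 moved up and 2 moved down, with sums of 35.5 FPKM and 129 to 131 CPM per kb. SOX9, a defining factor of crest and cartilage, stood at 4.38, 6.11 and 5.08 CPM.

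Of 8 neural ectoderm genes 2 (25%) moved up, OTX2 by 28.9 points and SOX11 by 22.3, and 1 (12.5%), FABP7, moved down. Among all ranked genes the shares were 15% and 16%. The sum of the 8 was 334 FPKM on day 0 and 482 to 490 CPM per kb on day 2, and none of the 8 was at 0 on either day. OTX2 also marks the epiblast and anterior endoderm, and had 16.2 FPKM and then 188, 192 and 193 CPM. Of 13 fibroblast and stroma genes 3 moved up, the collagens COL5A1 (1666, 1719.7 and 1662 CPM) and COL5A2 (1954, 1995 and 1929.7 CPM) and the fibrillin FBN1, and 4 moved down. Among these 4 were COL1A1, with a shift of −40.96 points, and THY1, with −36.8.

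The cell cycle genes kept their places. Of 34 members 2 moved up, the cyclin D1 gene CCND1 (21.5 points) and CDK6 (32.04), and 0 moved down, with a median of 2.98 points. MKI67 and CCNA2, both markers of dividing cells, shifted by 16.3 and 14.4 points. The summed level of the 34 was 1465 FPKM on day 0 and 1443 to 1452 CPM per kb on day 2. These units differ, so near-equal sums do not mean equal levels. The median log2 ratio of all genes was −0.58 before centring, and that of this list was 0.495 after it.

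Genes of energy metabolism that moved mostly moved down, in shares not far above the 16% of all ranked genes. Of 30 glycolysis and hypoxia genes 1 moved up, the prolyl hydroxylase gene EGLN3 (42.1 points), and 7 moved down, with a median of −0.67. ENO2, the neuronal enolase gene, went from 75.5 FPKM to 21.8, 25.9 and 24.5 CPM, and VEGFA from 19.2 FPKM to 30.8, 29.6 and 29.8 CPM. Of 28 nuclear genes of oxidative phosphorylation 0 moved up and 6 moved down, with a median of −4.93 per length and −11.4 by CPM. UQCRC2 and NDUFB8, subunits of complexes III and I, had the lowest shifts, −74.2 and −59.5 points, and 48.5% of the exon of NDUFB8 is shared with another gene. The 13 mitochondrially encoded genes included 0 that moved up and 1 that moved down, MT-ND5, and 10 lay within 1 point. By CPM 4 of them moved down, MT-ND6 (−74.8 points), MT-CYB (−55.6), MT-ND5 (−55.1) and MT-ATP8 (−29.3).

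Of 25 genes of cholesterol synthesis 4 (16%) moved up and 2 (8%) moved down, with a median of 7.45 points. Among all ranked genes the shares were 15% and 16%. INSIG1 and NSDHL shifted by 33.6 and 34.5 points. CYP51A1, with a shift of −32.3 points, shares 83.2% of its exon with another gene. Most ribosomal protein genes held the top of both rankings, and 43 of the 45 genes listed stayed within 6 points. The 2 of the list that moved down were RPS9, from 187 FPKM to 14.6, 12.4 and 13.7 CPM, and RPS18, which is described with the genes near 0 below. Another 34 ranked ribosomal protein genes were counted after the values were seen. Of these 0 moved up and 6 moved down, against 16% down among all ranked genes. Among the 6 were RPS25 (−98.04 points), RPL7A (−93.9), RPS10 (−81.6) and RPL36A (−59.8).

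Chromatin genes moved in both directions, with shares to be read against the 15% of all ranked genes that moved up and the 16% that moved down. Of 21 H3K4 methylation enzymes and partners 5 moved up and 2 moved down, with a median of 1.60 points per length. These are long genes, and by CPM the median was 12.5 and 9 moved up. SETD7 itself (ENSG00000145391, chromosome 4, 139495941 to 139606699, minus strand) had 3.53 FPKM on day 0 and 54.3, 55.9 and 55.3 CPM on day 2 in wild type, a shift of 20.6 ± 0.342 points per length and 47.4 by CPM. The knockout libraries had 1.48 FPKM and 33.3, 28.99 and 33.8 CPM, lower than wild type on both days. SETD1B, SMYD2 and SETD1A shifted by 44.1, 39.7 and 30.1 points, and SMYD3 moved down with −37.8. KDM5B, an H3K4 demethylase, shifted by −27.8 points per length and 2.44 by CPM.

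Of 23 polycomb and DNA methylation genes 7 moved up and 7 moved down, with a median of 0.997. By CPM 7 moved up and 5 moved down. The subunits RNF2, BMI1 and SUZ12 moved up by 34.2, 28.03 and 24.02 points, and TET1 and TET3, which oxidise methylcytosine, by 23.9 and 22.1. The subunits EED and EZH2 did not meet the rule, with 5.06 and 20.2 points. CBX7, EZH1 and PHF19 moved down, with shifts of −44.4, −38.5 and −32.8, and so did JARID2 with −22.9. DNMT3A shifted by −21.2 points per length and 1.60 by CPM. RING1 also moved down, with 4.26 FPKM on day 0 and a listed value of 0 in all 3 day 2 libraries.

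Among 22 genes of the unfolded protein response and amino acid stress 3 moved up (1 by CPM) and 7 moved down. ASNS, asparagine synthetase, and DDIT4, an inhibitor of mTORC1, went from 98.5 and 139 FPKM to 0.646, 1.18 and 1.35 and to 2.08, 2.20 and 1.75 CPM. For several others the day 0 wild-type library was high. DDIT3, the stress factor also called CHOP, had 11.1 FPKM against 0.854 in the knockout library of that day, and CHAC1, which degrades glutathione, 17.8 against 3.69. On day 2 they stood at 1.94, 2.17 and 2.21 and at 9.86, 11.4 and 8.84 CPM. TXNIP, an inhibitor of thioredoxin chosen after its values were seen, had 76.7 FPKM in the wild-type day 0 library against 3.58 in the knockout. Its wild-type shift was −84.7 points and its knockout shift −8.27. The chaperones HSPA5 and HSP90B1 shifted by 3.03 and 0.755 points. Of 25 p53 targets 6 (24%) moved up (3 by CPM), PLK3 the furthest with 43.8 points, and 4 (16%) moved down, with a median of −1.25. Among all ranked genes 15% moved up and 16% moved down.

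The 12 largest moves up by the naming rule, over all genes, were GRP, HAND1, EOMES, APLNR, GATA6, MIXL1, HAS2, DKK1, BMP2, GSC, SP5 and GATA4, and 11 of them lay under 1 FPKM on day 0. GRP (chromosome 18, 59220168 to 59230774, plus strand) encodes gastrin-releasing peptide, a neuropeptide. It had 0.0596 FPKM and then 300.4, 298 and 303 CPM, and its shift of 98.9 points was the largest of all. HAS2 (chromosome 8, 121612116 to 121641390, minus strand), a hyaluronan synthase needed for heart development, had 0.638 FPKM and then 1082, 1106 and 1105 CPM.

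The 12 largest moves down cannot be read the same way. They were RPS25, RPS18, SLC16A1, EIF3K, RPL7A, YWHAE, ACTN4, TAF15, ASNS, SARNP, NDUFA13 and HYOU1, most of them genes that nearly every cell uses. RPS18, a protein of the small ribosomal subunit, had 593 FPKM on day 0 and 0.108, 0.279 and 0.264 CPM on day 2, that is 20 counts over the 3 libraries. ACTN4, an actin crosslinker, had 75.7 FPKM and then 0.0717, 0 and 0 CPM. Of the 12, 9 belong to a set of 75 genes. These lay under 1 CPM on day 2 (mean of 3 libraries) and above percentile 50 of the ranking on day 0. That definition nearly fixes that they met the rule for moving down, as 74 of the 75 did. In all 6 day 2 libraries, knockout included, 62 of the 75 lay under 1 CPM.

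Shared exons were more frequent in that set. At least 50% of the exonic bases lay in another gene, on either strand, in 25 of the 75 (33.3%), against 2.50% of all ranked genes. At least 1 exonic base was shared in 56 of the 75 (74.7%), against 50.1% of all ranked genes. In the other 19 no exonic base was shared, EIF3K and YWHAE among them. Genes with near-identical copies elsewhere in the genome, such as those of ribosomal proteins, are uncertain too, since how shared reads were assigned is not given in the sources used here. Whether the counting of shared or repeated reads set these values was not tested.

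**Figure D4:**
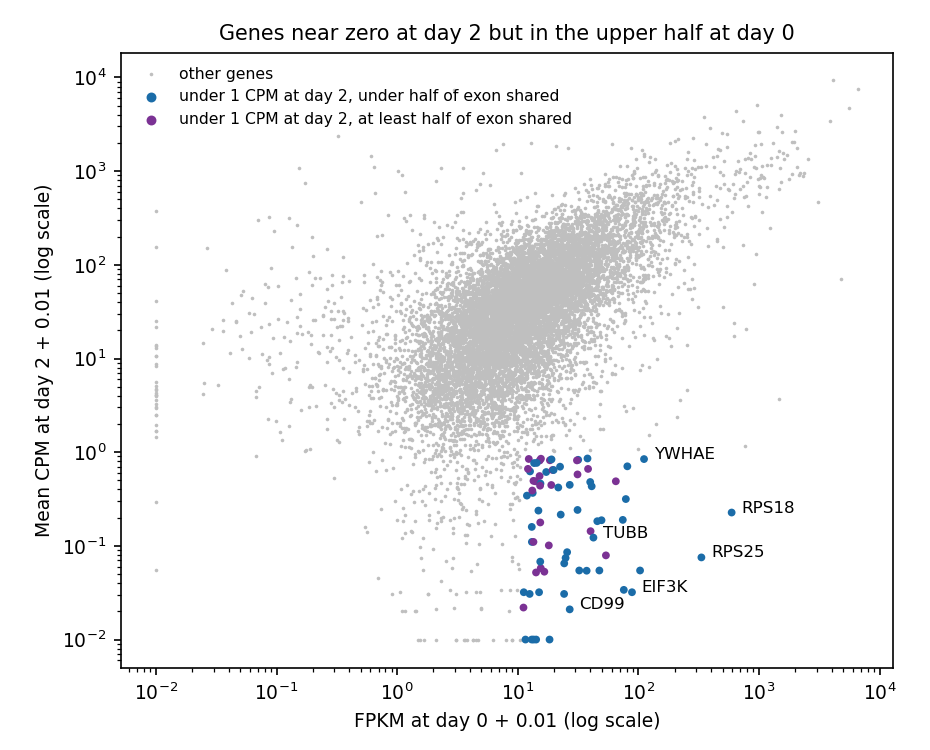
Day 0 FPKM (x axis) against mean day 2 CPM (y axis), both plus 0.01 on log axes, for 11431 genes in wild type. The 75 coloured genes lie under 1 CPM on day 2 above percentile 50 of the day 0 ranking; purple marks the 25 with at least 50% of their exon shared with another gene.

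Of the 1834 genes that moved down, 1323 had at least 5 CPM on day 2. Those with the lowest shifts among them were looked up after the values were seen. PTPRZ1, a receptor phosphatase of neural and stem cells, went from 63.7 FPKM to 6.92, 10.1 and 8.31 CPM, a shift of −83.4 points. ITGA6, the laminin receptor subunit of stem cells, shifted by −75.4 points, the adhesion receptor ADGRV1 by −77.5, the glycine cleavage enzyme GLDC by −72.3 and the secreted chaperone CLU by −70.05. The same 20 genes included EEF1D, PSMA6, PSMA2 and ETFB, which are used in most cells, and 5 of the 20 share at least 30% of their exon with another gene. The share of all ranked genes at that cut-off was not counted, so the 5 cannot be read as an excess. U2AF1 and U2AF1L5 are near-identical copies and their values are uncertain.

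Gene length bore on the shifts. Pearson's r across genes between the shift and log10 of exonic length was −0.117 per kb of exon and 0.343 by CPM alone. In the shortest 10% of the genes (median exonic length 1692 bases) the median shift was 1.78 points per kb and −13.2 by CPM. In the longest 10% (12988 bases) it was −6.35 and 12.6. Genes that moved up and down had median exonic lengths of 4700.5 and 6019.5 bases, against 5168 for all.

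**Figure D5:**
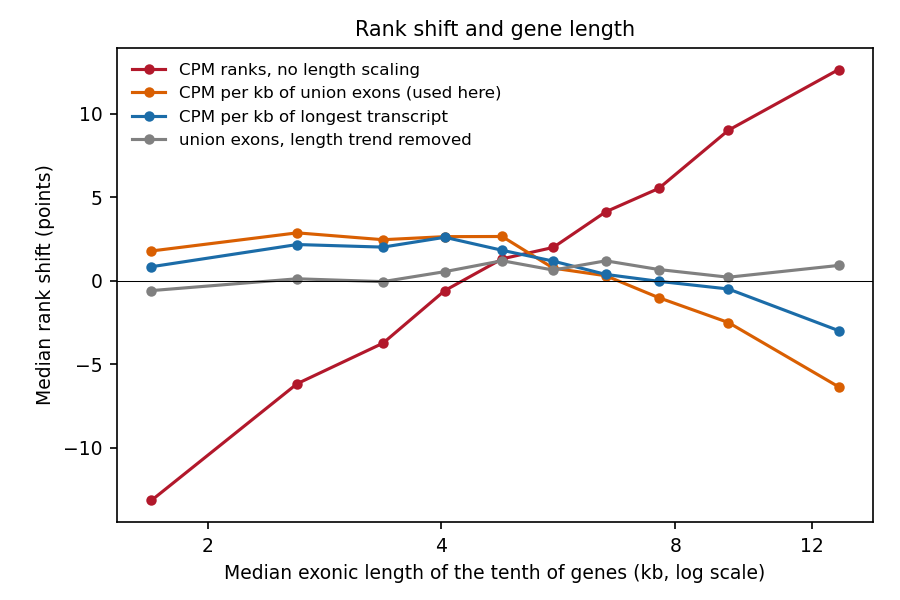
Median rank shift in wild type (y axis, points) in 10 bins of genes by exonic length (x axis, kb, log scale) under 4 ways of scaling day 2. Ranks by CPM alone run from −13.2 points in the shortest bin to 12.6 in the longest, and ranks per kb of exon from 1.78 to −6.35.

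The knockout libraries gave a second pair of days, from different libraries but the same 2 tables. By the same rule 1465 genes (12.8%) moved up and 1632 (14.3%) moved down in the knockout. Of the 1714 genes that moved up in wild type 1220 (71.2%) did so in the knockout too, which is 83.3% of the knockout's own. Of the 1834 that moved down 1379 (75.2%) did so in the knockout, which is 84.5% of its own. Wild type and knockout went in opposite directions by the rule in 5 genes, and their shifts differed by at least 20 points in 376 (3.29%). For the mesoderm genes the knockout shifts were close in size, with 97.6 points for EOMES, 95.98 for MIXL1, 74.6 for T, 92.8 for MESP1 and 98.4 for HAND1. CDH1 shifted by −51.9 points and NANOG by −64.6. The difference between genotypes was not tested, since each has 1 day 0 library.

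Symbols with a value on 1 day only could not be ranked. They were 2631 on day 0, of which 1832 are protein-coding and 467 of these reached 5 FPKM, and 763 carry clone-type names. Their median was 2.22 FPKM, against 10.5 for the ranked genes. The most abundant of them were EEF1G (871 FPKM), GNB2L1 (436), NGFRAP1 (244), SOX2 (157), TCEB2 (138), NME1-NME2 (127), SHFM1 (106) and SEPW1 (104). Several are older symbols, and for 5 of the 2631 the present name is in the day 2 table. APELA, the ligand of APLNR, named after its values were seen, had 102.9 FPKM.

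On day 2, 209 symbols had no match, 167 of them protein-coding, and 76 reached 5 CPM. Their median was 3.30 CPM, against 34.6 for the ranked genes. HBB, the beta-globin gene, headed them by its mean, with 0, 0 and 94.6 CPM in wild-type replicates 1, 2 and 3, so that 1 library gave the whole value. The next were BCL11B, a zinc finger factor of T cells and neurons, with 30.5, 30.5 and 29.2 CPM, and KCNN3, a potassium channel gene, with 26.5, 25.01 and 25.5. COL6A6, KIAA1024, KCNJ5, TMEM132E and RPH3A followed, with means of 23.02 to 16.6 CPM.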

How the data were processed

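RNA-seq of 4 wild-type H1 libraries was used, 1 of day 0 and 3 of day 2, grouped by the sample titles. Per the file headers, the authors deposited day 0 as FPKM and day 2 as counts per gene. The day 2 values are whole numbers, so they were treated as raw counts. The submitters' processing notes name HISAT2, StringTie and the build GRCh38 (hg38). Versions, the counting tool, strand setting and annotation: not given in the sources used here. According to the labels' protocols, total RNA was extracted with TRIzol and made into libraries with a SMARTER mRNA kit.

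Symbols were joined where unique in both tables. CPM used the total of each day 2 library. Exonic length (union of exons), positions and exon overlap on either strand came from GENCODE release 29 by the Ensembl ID of the day 0 table, and 4 symbols had no match. Ranks ran from 0 to 100 over 11431 genes. Ratios used a pseudocount of 1. With 1 day 0 library and 2 units no test was run, so there are no p-values. A count of 0 allows up to 0.0931 to 0.108 CPM (3 counts per library, counting error only).

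The text names fixed genes of the study's question, the 12 largest shifts each way and 8 largest ratios among protein-coding genes of at least 500 exonic bases with under 50% shared, at least 5 FPKM or 5 CPM and a 20-point shift on both scales (ratios without the last), 4 or more members per list, and the 8 most abundant symbols of 1 day. The members, the 27 gene lists and the tests were chosen with earlier results of these data known. Promoters are RefSeq windows (GRCh38.p14), the first listed per symbol. A few named genes are not reported here. The ranking was also run on simulated counts with known changes. Both simulated days were built from the day 2 levels and the same exonic lengths. That run therefore could not test the difference between FPKM and counts, or how shared reads were assigned. Python 3.11.15, pandas 2.3.3, numpy 2.4.6, scipy 1.17.1, statsmodels 0.14.6 and matplotlib 3.10.9 were used. Alternatives were other lengths, thresholds, pseudocounts, filters and rank ranges, leaving out each day 2 library, and the knockout libraries.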

Additional observations from a re-analysis of the deposited data

Results flagged for a closer look

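For 6 named genes the wild-type libraries moved one way by the 20-point rule and all 3 knockout libraries moved the other way from the knockout day 0 library. The difference was not tested, since each genotype has 1 day 0 library. LEFTY1 shifted by 48.03 points in wild type and by −14.02 in the knockout, from 0.0311 and 11.8 FPKM on day 0. CHAC1 shifted by −26.3 and 22.3 points, from 17.8 and 3.69 FPKM. SLC7A11, the cystine transporter gene, shifted by −22.3 and 26.9 points, from 16.99 and 3.76 FPKM. DDIT3 shifted by −33.5 and 17.96 points, and the stress factor gene ATF3 by −23.02 and 7.42. EGR1, an immediate early gene, shifted by −29.1 and 7.23 points. In 5 of these 6 genes, LEFTY1 being the exception, the wild-type day 0 library was higher than the knockout day 0 library.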

How the results depend on the processing

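No paired analysis was possible because the results come from no test and day 0 carries no replicate numbers. With ranks over each whole table instead of the shared symbols, 1070 genes moved up and 2529 moved down, so the share of upward moves went from 48.3% to 29.7%. With a threshold of 10 points 3217 moved up and 3059 moved down, and with 30 points 868 and 1061. Between the 2 day 0 libraries 1812 genes differed by 10 points and 67 by 30 points. Leaving out 1 day 2 library at a time gave 1751 to 1769 genes up and 1868 to 1877 down. The other alternatives kept both counts within 1.5 times.

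Of 3548 genes that moved by the rule, 102 had a shift of the other sign by CPM alone and 37 in the knockout libraries. Among the 223 of them covered by the naming rule, the sign changed by CPM alone for DNMT3A (1.60 points), KDM5B (2.44) and SDF2L1 (−12.3), and in the knockout libraries for ATF3 (7.42), CHAC1 (22.3), DDIT3 (17.96), EGR1 (7.23), LEFTY1 (−14.02) and SLC7A11 (26.9). Apart from the alternatives' own construction, the cause was not tested. Added after the data were seen were leaving out the 75 near-zero genes (1660 up, 1802 down) and a minimum of 5 FPKM or 5 CPM (1762 up, 1884 down). Day 0 is a single library of unknown depth, ranks saturate near the top, and the change of unit and the change of day cannot be told apart. Low day 2 values rest on few counts, such as 20 for RPS18 over 3 libraries.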

Other observations

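The beta-globin gene HBB was read in some day 2 libraries of each genotype and in others hardly at all. It had 0, 0 and 94.6 CPM in wild-type replicates 1, 2 and 3 and 0, 66.5 and 0.0337 CPM in knockout replicates 1, 2 and 3. Beside it, the ranked members of the hemato-endothelial list had summed levels of 262, 268 and 264 CPM per kb in the wild-type replicates.

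Among promoters of the 34 genes with a window that moved up by at least 80 points, 4 (11.8%) held a TCF/LEF match, 5 (14.7%) a FOXH1 match and 6 (17.6%) a TATA match. Among the 38 that moved down by at least 60 points with at least 5 CPM on day 2, the counts were 0, 4 (10.5%) and 2 (5.26%). Over all ranked genes with a window the same 3 shares were 1.32%, 4.98% and 4.96%. Over all RefSeq windows they were 2.64%, 11.1% and 11.95%. The counts in these small groups are few, and no difference between groups was tested. Of 115 genes under 1 FPKM on day 0 that moved up, 13 (11.3%) held a FOXH1 match, 5 (4.35%) a TCF/LEF match and 16 (13.9%) a TATA match. Of 123 equally low genes that did not move by 20 points, the counts were 7 (5.69%), 4 (3.25%) and 13 (10.6%). These groups were formed on the measured shifts and are given as a description.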
